A study of Mus musculus with 8 samples.

Results

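The genes of extracellular matrix turnover and wound repair examined here are Mmp8, Mmp9, Adam8, Fn1 and Spp1, taken by gene name from the deposited tables of colonic intestinal epithelial cells (IECs). All 5 were listed on day 7 after dextran sodium sulfate (DSS), among 128 genes, and Spp1 alone was also listed on day 0 without DSS, among 309 genes. The tables hold only genes that passed the authors' own thresholds for a difference between the genotypes. The members were therefore selected on the contrast described here, and their differences are given as a description without a test.

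IECs came from Efhd2f/f Vil1cre/+ mice, in which Cre expressed from the villin promoter deletes the floxed exon of Efhd2 in the intestinal epithelium, and from Efhd2f/f mice, which carry the floxed alleles without Cre. Each genotype was sequenced without DSS and 7 days after the start of DSS, a polymer given in drinking water that injures the colonic epithelium, which gave 4 groups of 2 libraries. The study used young adult mice of both sexes, and the labels do not say how many animals a library holds. The IEC fraction was released from the colon with a chelating agent and passed through a strainer with no sort described, so other cells of the inflamed mucosa could be in it. Of 12 epithelial markers, such as Epcam, Cdh1 and Krt8, 0 were listed on either day, so the label of the cells was not checked with them. The targeted gene was listed on day 0, at 556 and 713 normalized counts in Efhd2f/f Vil1cre/+ IECs and at 2663 and 2686 in Efhd2f/f IECs. It was not listed on day 7. The tables give no library totals, so depth is unknown, and no interval from counting was computed.

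Matrix metalloproteinases are zinc enzymes that cut collagens and other matrix proteins, and they are held in check by tissue inhibitors (TIMPs). Mmp8, the neutrophil collagenase, and Mmp9, gelatinase B, are stored in neutrophil granules, and Mmp9 can also be made by macrophages and stressed epithelium. Adam8 encodes a membrane-anchored metalloproteinase-disintegrin that is known from leukocytes. Fn1 encodes fibronectin, an adhesive glycoprotein of plasma and provisional wound matrix that cells bind through integrins. Spp1 encodes osteopontin, a secreted phosphoprotein that also binds integrins and CD44, and that macrophages and injured epithelium produce.

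On day 7, each of the 5 genes was higher in Efhd2f/f Vil1cre/+ IECs on the authors' scale, as were nearly all genes of that table. With equal library sums over the listed genes, the log2 difference was -0.72 for Adam8 and -0.04 for Fn1 (values below). The sums depend most on abundant genes, and on day 7 these include genes selected as higher, such as the antimicrobial lectin gene Reg3b. That scaling therefore lowers the differences of the listed genes by its construction. Both Efhd2f/f Vil1cre/+ libraries lay above both Efhd2f/f libraries for 5 of 5 members, against 90.6% of all listed genes. The mean of the normalized counts was 8.79 times that of Efhd2f/f IECs for Spp1, 7.99 times for Mmp8, 6.15 times for Mmp9, 4.87 times for Fn1 and 3.30 times for Adam8. The 5 genes differed in which of the 2 Efhd2f/f Vil1cre/+ libraries was higher, with the proteinases and Fn1 higher in library 71 and Spp1 higher in library 65. In bulk RNA, more cells of a type and more RNA per cell cannot be told apart.

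The promoter windows are shown because the members were listed in the same direction on day 7 while Spp1 departed in its pattern. That direction was shared by 91.4% of the genes listed on day 7. No window was found for Mmp9 and Fn1, so letters and patterns were not compared. RefSeq windows on GRCm38.p6, which run from 250 bases before the annotated start to 50 bases from it on, were found for 3 of 5 members (Mmp8, Adam8 and Spp1). They were searched on both strands for 5 motifs. The AP-1 motif was read as TGANTCA. The C/EBP motif was read as TTGCNNAA. The letters of the TATA box were TATAAA. Those of the CCAAT box were the letters in its name, and a GC box was read as GGGCGG. Capitals mark the matches as they stand along the gene. A match on the opposite strand therefore appears as its reverse complement, which holds for each CCAAT box (ATTGG), the GC box (CCGCCC) and the TATA match of Mmp8 (TTTATA). The windows are those of Mmp8 at chr9:7558179-7558478 (plus strand), of Adam8 at chr7:139992513-139992812 (minus strand) and of Spp1 at chr5:104434861-104435160 (plus strand), each written 5′ to 3′ along the gene.
Mmp8: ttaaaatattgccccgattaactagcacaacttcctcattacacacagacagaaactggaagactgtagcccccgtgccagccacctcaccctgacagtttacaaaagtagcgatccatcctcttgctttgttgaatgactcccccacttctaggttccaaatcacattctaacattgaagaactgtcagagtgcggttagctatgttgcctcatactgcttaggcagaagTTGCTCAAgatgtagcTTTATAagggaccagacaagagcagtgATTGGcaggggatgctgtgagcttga
Adam8: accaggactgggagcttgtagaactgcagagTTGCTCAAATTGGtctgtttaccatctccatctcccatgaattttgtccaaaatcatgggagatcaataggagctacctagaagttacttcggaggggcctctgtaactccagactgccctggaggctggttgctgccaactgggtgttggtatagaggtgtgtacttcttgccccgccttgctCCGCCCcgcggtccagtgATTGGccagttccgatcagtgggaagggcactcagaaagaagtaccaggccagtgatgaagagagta
Spp1: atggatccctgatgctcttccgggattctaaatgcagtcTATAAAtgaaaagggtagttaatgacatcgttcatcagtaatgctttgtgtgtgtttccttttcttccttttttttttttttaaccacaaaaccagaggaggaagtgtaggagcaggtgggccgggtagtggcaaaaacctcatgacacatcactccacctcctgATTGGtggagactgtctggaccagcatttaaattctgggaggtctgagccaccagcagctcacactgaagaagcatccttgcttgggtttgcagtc

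The C/EBP letters matched in Mmp8 and Adam8, both times as TTGCTCAA, and are held by 10.8% of all 32851 promoter windows. In Adam8 a CCAAT match follows it directly without overlap. TATA letters, held by 13.6% of all windows, matched in Mmp8 and Spp1. In Mmp8 the match was on the opposite strand, with the first base at -3 from the RefSeq start on which the window is built. The start of Mmp8 in the deposited table differs from the RefSeq start, and from it the same base lies at -30. In Spp1 the match was at -211 from the RefSeq start and at -218 from the deposited start. All 3 windows held a CCAAT box, as did 37.4% of all windows, and Adam8 alone held a GC box, against 35.7% of all. The AP-1 letters, held by 7.81% of windows, were in none of the 3. A 2nd RefSeq window of Spp1, around a start inside the gene, held 1 match, of the C/EBP letters. These are matches of letters and were not tested as sites.

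Mmp8 (ENSMUSG00000005800) is a gene of 10 exons at 7558456 to 7568485 on the plus strand of chromosome 9 (GRCm38). It was at 776 normalized counts in library 65 and 3216 in library 71 of the Efhd2f/f Vil1cre/+ IECs, and at 139 and 361 in libraries 67 and 68 of the Efhd2f/f IECs. The groups did not overlap, and the lowest Efhd2f/f Vil1cre/+ value was 2.15 times the highest Efhd2f/f value. The means were 1996 ± 1726 and 250 ± 157 (± s.d., n = 2 in each group), and the log2 difference was 2.81 with a standard error of 1.23. Log2 differences here and below are between group means of log2(normalized count + 1), a scale that understates the change of genes with low values. Without library 71 the difference was 1.79, and without library 65 it was 3.84.

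Mmp8 is one of 10 Mmp genes that GENCODE annotates on chromosome 9, between 7272514 and 7699585. It was the 1 gene of these that was listed on day 7. Of 23 annotated Mmp genes in all, 3 were listed on that day (Mmp8, Mmp9 and Mmp19), and 0 on day 0. The levels of the Mmp genes that were not listed were not analysed here.

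Mmp9 (ENSMUSG00000017737) lies on the plus strand of chromosome 2 from 164940780 to 164955850, with 13 exons in its longest transcript. It was at 1346 and 4138 normalized counts in libraries 65 and 71 and at 312 and 579 in libraries 67 and 68. The order of the 4 libraries was that of Mmp8, which Adam8 and Fn1 also had. The log2 difference was 2.47 (standard error 0.92), and it was 1.66 without library 71 and 3.28 without library 65.

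Adam8 (ENSMUSG00000025473) lies on the minus strand of chromosome 7 from 139978932 to 139992562, with 22 exons in its longest transcript. It was at 1765 and 3487 normalized counts in libraries 65 and 71 and at 556 and 1037 in libraries 67 and 68. It had the smallest difference between the genotypes of the 5, 1.71 on the log2 scale (standard error 0.67), which was 1.22 without library 71 and 2.20 without library 65. A processed transcript, Gm16201, is annotated on the opposite strand within the same span and the microRNA gene Mir7062 lies inside it. As the strand setting of the counting is not given in the sources used here, reads of overlapping genes cannot be told apart.

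Fn1 (ENSMUSG00000026193) lies on the minus strand of chromosome 1 from 71585520 to 71653200, with 46 exons in its longest transcript, and overlaps the antisense gene Apol7d. It was at 1187 and 1997 normalized counts in libraries 65 and 71 and at 185 and 470 in libraries 67 and 68. Among the 5 genes it had the smallest ratio between both Efhd2f/f Vil1cre/+ libraries, 1.68, and the widest gap between the genotypes, with its lowest Efhd2f/f Vil1cre/+ value 2.53 times the highest Efhd2f/f value. The log2 difference was 2.38 (standard error 0.77), 1.71 without library 67 and 3.05 without library 68.

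Spp1 (ENSMUSG00000029304) lies on the plus strand of chromosome 5 from 104435118 to 104441050, with 6 exons in its longest transcript. The gene model Gm42793 overlaps it on the same strand. It was at 755 and 97.6 normalized counts in libraries 65 and 71 and at 24.0 and 72.9 in libraries 67 and 68. Library 65 stood apart, while library 71 was 1.34 times the higher Efhd2f/f library. The means were 426 ± 465 and 48.5 ± 34.6, and the log2 difference was 2.67 (standard error 1.66). It was 1.20 without library 65 and 4.14 without library 71, so the size of the difference rested on library 65.

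**Figure D1:**
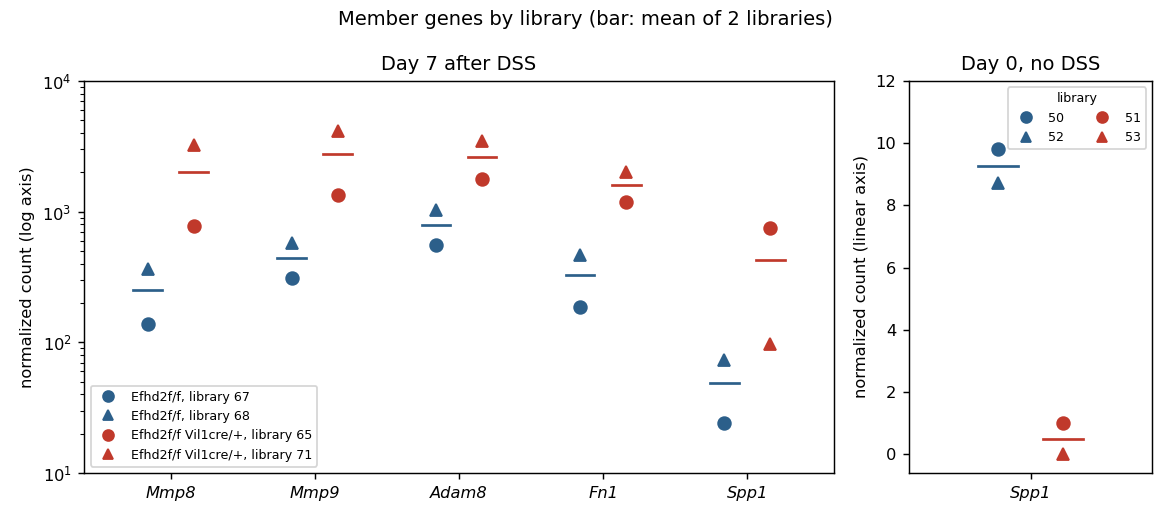
Normalized counts of the 5 genes in each library on day 7 (left, log axis) and of Spp1 on day 0 (right, linear axis), with points for libraries and bars for the mean of 2 libraries. On day 7 both red points lie above both blue points for each gene on the authors' scale, which held for 0 of the 5 with equal library sums. That scaling lowers most listed genes of day 7 by its construction. Spp1 is the gene in which library 65 (755) exceeds library 71 (97.6). On day 0 Spp1 lies lower in Efhd2f/f Vil1cre/+ IECs.

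All 5 genes had a log2 difference above 1, as did 91.4% of the listed genes. Their places by size of difference were 45 for Mmp8, 51 for Spp1, 68 for Mmp9, 75 for Fn1 and 106 for Adam8 of 128. Against the median of the listed genes, 2.53, the difference was 0.28 higher for Mmp8 and 0.13 higher for Spp1. That of Mmp9 was -0.06, that of Fn1 -0.15 and that of Adam8 -0.83 relative to it. With equal library sums over these genes, most of which were selected as higher, the median moved by -2.41, and the log2 differences became 0.39 for Mmp8, 0.28 for Spp1, 0.05 for Mmp9, -0.04 for Fn1 and -0.72 for Adam8. On that scale 0 of the 5 members had both Efhd2f/f Vil1cre/+ libraries above both Efhd2f/f libraries.

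**Figure D2:**
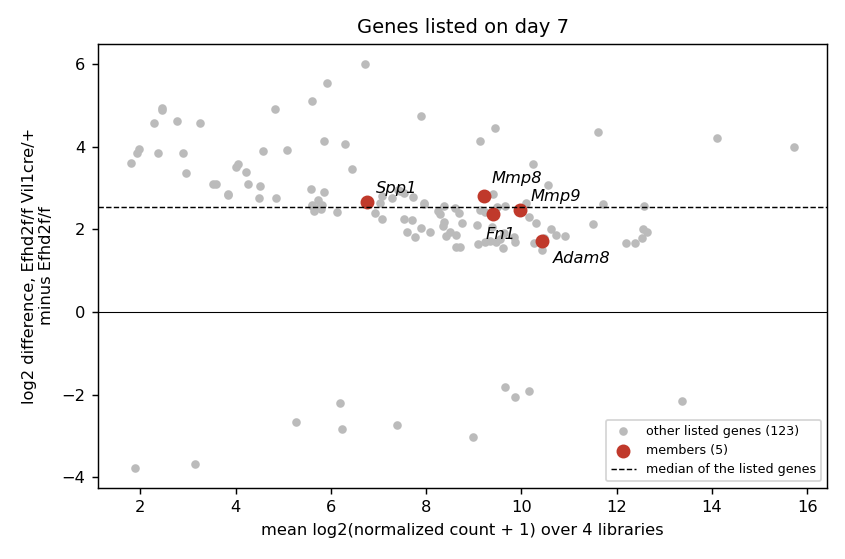
Log2 difference between the genotypes on day 7 against the mean level over 4 libraries for the 128 listed genes, with the 5 members in red. The members lie between 1.71 and 2.81, around the median of 2.53 (dashed line). With equal library sums, which lower most of these genes by construction, Adam8 lies at -0.72 and Fn1 at -0.04.

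Levels were compared between genes per kilobase of the gene length in the deposited tables. In both Efhd2f/f libraries Adam8 was highest, at 120 and 224 normalized counts per kilobase, followed by Mmp9 (88.1 and 164) and Mmp8 (57.3 and 149). Fn1 (15.8 and 40.2) and Spp1 (14.5 and 44.3) were lowest, and their order differed between the libraries. In library 71 the order of the proteinases was turned, with Mmp8 at 1326, Mmp9 at 1169 and Adam8 at 752 per kilobase, while Fn1 was at 171 and Spp1 at 59.2. In library 65 the highest level was that of Spp1, at 458, and Mmp8, Mmp9 and Adam8 lay close together at 320, 380 and 381, with Fn1 at 102. Over the 2 Efhd2f/f Vil1cre/+ libraries the means (± s.d.) were 823 ± 712 for Mmp8, 775 ± 558 for Mmp9 and 566 ± 262 for Adam8. They were 259 ± 282 for Spp1 and 136 ± 49.0 for Fn1. The genes share both libraries, so these spreads do not measure a difference between genes, and the order of the means was not tested.

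The difference between both libraries of a genotype is given as a description, with 1 library on each side. The authors' adjusted p-value depends on the spread within a genotype, so the choice of genes was not free of it. Library 71 exceeded library 65 by 2.05 on the log2 scale for Mmp8, 1.62 for Mmp9, 0.98 for Adam8 and 0.75 for Fn1. For the listed genes as a whole the median of this difference was 0.32, and 64.8% were higher in library 71. Spp1 differed by -2.94, a 7.73-fold higher level in library 65, and was in place 2 of 128 from the low end. In the Efhd2f/f IECs all 5 genes were higher in library 68 than in library 67, by 0.89 to 1.57, as were 77.3% of the listed genes, with a median of 0.88. With equal library sums these differences kept their sign for all 5 genes and were shifted. Library 71 minus library 65 became 1.47 for Mmp8, 1.04 for Mmp9, 0.40 for Adam8, 0.17 for Fn1 and -3.50 for Spp1. Library 68 minus library 67 became 0.13 for Mmp9, 0.14 for Adam8, 0.59 for Fn1, 0.62 for Mmp8 and 0.84 for Spp1.

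**Figure D3:**
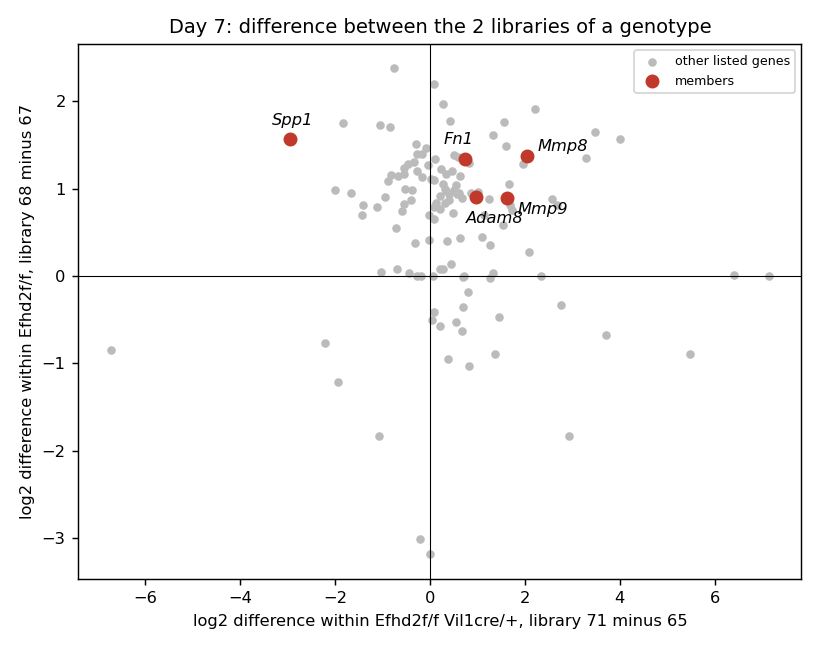
Log2 difference between both libraries of each genotype on day 7, Efhd2f/f Vil1cre/+ on the horizontal axis and Efhd2f/f on the vertical axis, for the 128 listed genes. Spp1 lies at -2.94 on the horizontal axis, while Mmp8, Mmp9, Adam8 and Fn1 lie between 0.75 and 2.05, and on the vertical axis the 5 members lie between 0.89 and 1.57.

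The listed genes nearest to each member were found by the Euclidean distance between log2(normalized count + 1), centred on the gene mean, over the 4 libraries of day 7. A distance of 0 would mean parallel values. Mmp8 and Mmp9 were 0.57 apart, and Spp1 was between 2.63 and 3.53 from the other members. The 3 genes nearest to Mmp8 were Wfdc21 (0.09), Alox5ap (0.41), whose product is needed for leukotriene synthesis, and Retnlg (0.47), a neutrophil gene. Nearest to Mmp9 were Asprv1 (0.08), S100a8 (0.19), a subunit of calprotectin, and the immunoglobulin segment Igkv10-96 (0.22). Adam8 was followed by Cd33 (0.11), a myeloid lectin receptor, Lgmn (0.24), a lysosomal protease, and Trem1 (0.29), a receptor of myeloid cells. Fn1 was followed by Fpr2 (0.34), a formyl peptide receptor, Ptk6 (0.37), an epithelial kinase, and Alas2 (0.37), a gene of haem synthesis in red cells. Spp1 had no gene as close. Its nearest were the chemokine gene Ccl3 (0.93), Inhba (1.04), which encodes an activin subunit, and Timp1 (1.24), and all 3 were higher in library 65 than in library 71. With 4 libraries as points, genes of unlike cells lie close to a member, as Igkv10-96 and Alas2 show.

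Of 98 matrix genes on a list of proteinases, inhibitors, matrix proteins and their receptors, 8 were listed on day 7, the 5 members among them, and all 8 were higher in Efhd2f/f Vil1cre/+ IECs, or 6 of them with equal library sums. Of all listed genes 91.4% were higher, so the count is near that of the table as a whole. Their median log2 difference was 2.63, or 2.96 for the 3 that are not members, against 2.53 for all listed genes. The others were Mmp19, Timp1 and Lcn2. Mmp19, a further metalloproteinase, was at 352 and 644 normalized counts in libraries 65 and 71 and at 43.0 and 84.1 in libraries 67 and 68, a log2 difference of 2.96. Timp1, the inhibitor, was at 194 and 71.9 against 14.6 and 24.3, a log2 difference of 2.59, and of the 4 annotated Timp genes it was the one listed. Lcn2, which encodes a siderophore-binding protein that also forms a complex with gelatinase B, was at 2356 and 7498 against 241 and 501. Proteinase and inhibitor thus had unlike patterns over the Efhd2f/f Vil1cre/+ libraries, with Timp1 higher in library 65 and Mmp8, Mmp9, Mmp19 and Lcn2 higher in library 71.

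Of 57 wound-repair genes, 7 were listed on day 7, all higher in Efhd2f/f Vil1cre/+ IECs (6 of 7 with equal library sums) with a median log2 difference of 2.93, against 91.4% higher and a median of 2.53 for all listed genes. Library 65 was the higher one for Inhba (858 against 271 in library 71), Il1a (1241 and 695) and Osm (1401 and 969.5), which encode an activin subunit and the cytokines interleukin-1α and oncostatin M. Library 71 was the higher one for Chil3 (5053 against 1082), a chitinase-like protein of myeloid cells, and F13a1 (878 and 347), the coagulation factor subunit that cross-links fibrin and fibronectin. Reg3b and Reg3g, antimicrobial lectins of the epithelium, were also higher in library 71.

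Of 19 neutrophil markers other than Mmp8, Mmp9 and Adam8, 9 were listed on day 7, and each was higher in Efhd2f/f Vil1cre/+ IECs (8 of 9 with equal library sums) and higher in library 71 than in library 65. Of all listed genes 91.4% were higher in Efhd2f/f Vil1cre/+ IECs and 64.8% were higher in library 71. The 9 markers, with Lcn2 of the matrix list among them, had a summed level of 19295 and 59288 normalized counts in libraries 65 and 71. In libraries 67 and 68 it was 3753 and 6197. S100a9, the most abundant, was at 10154 and 21631 against 2125 and 2905, S100a8 at 4516 and 15016 against 1038 and 1752, and Retnlg at 1586 and 4714 against 240 and 813. Ngp, a granule gene of immature neutrophils, was at 7712 in library 71 and 90.6 in library 65. The other 10 markers of this list, such as Ly6g, Elane and Mpo, were not listed, and their levels were not analysed here.

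Of 19 macrophage and monocyte markers, 3 were listed (Cd14, Chil3 and Fcgr3), with a summed level of 13800 and 18702 normalized counts against 2664 and 4832. Most of the sum was Cd14, at 11964 and 13046 in libraries 65 and 71. Chil3, also on the wound-repair list, was at 1082 and 5053 in them, while Fcgr3 was lower in library 71, at 754 and 604. Of 11 fibroblast and mesenchyme markers 1 was listed, Vim, at 1825 and 2666 against 483 and 992, and of 4 endothelial and 7 lymphocyte markers 0 were listed on day 7. With equal library sums Cd14, Fcgr3 and Vim turned lower. Whether the share of these cells plays a part in the levels of the 5 genes was not tested.

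**Figure D4:**
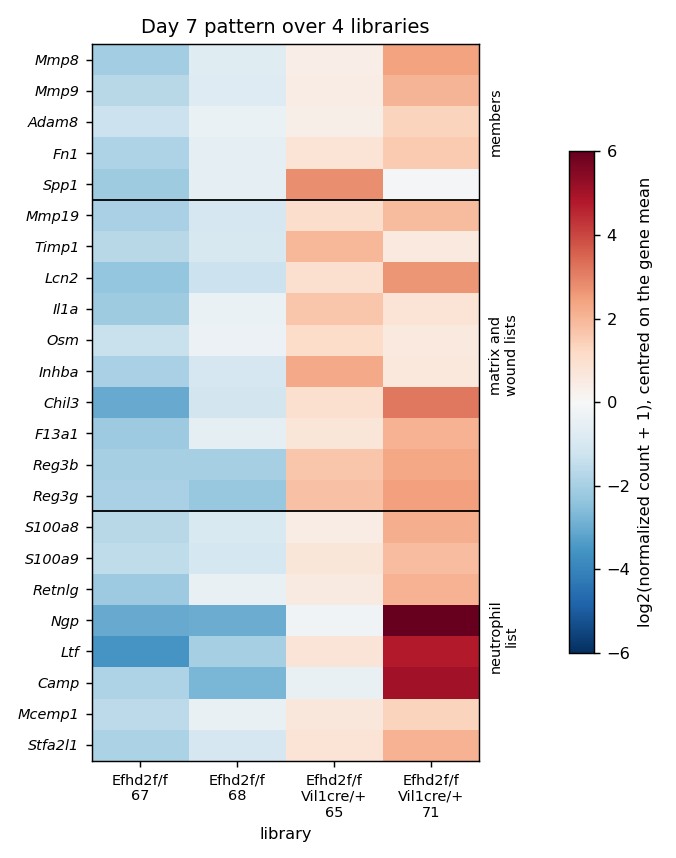
Log2(normalized count + 1) on day 7, centred on the mean of each gene over the 4 libraries, for the members, the other listed genes of the matrix and wound-repair lists and the listed neutrophil markers. Red marks values above and blue values below the gene mean, and Spp1, Timp1, Il1a, Osm and Inhba are darker in library 65 while the neutrophil genes are darker in library 71.

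Without DSS, Spp1 was at 1.01 and 0 normalized counts in libraries 51 and 53 of the Efhd2f/f Vil1cre/+ IECs and at 9.80 and 8.71 in libraries 50 and 52 of the Efhd2f/f IECs. The Efhd2f/f Vil1cre/+ libraries were thus both lower, the opposite of day 7, at levels of a few counts. Spp1 is among the 67% of genes listed on day 0 whose Efhd2f/f Vil1cre/+ libraries were both below the Efhd2f/f libraries, and among the 65% with a log2 difference below -1. The log2 difference was -2.85 (standard error 0.51), and with pseudocounts of 0.1 and 10 it was -4.81 and -0.88. The days were normalized apart, so the levels of Spp1 were not compared between them. Mmp8, Mmp9, Adam8 and Fn1 were not listed on day 0, and their levels without DSS were not analysed here.

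The other matrix genes listed on day 0 were 4 of the list, which did not share a direction. Thbs1, which encodes the adhesive glycoprotein thrombospondin-1, was at 2993 and 3222 normalized counts in Efhd2f/f Vil1cre/+ IECs and at 976 and 1916 in Efhd2f/f IECs. Itga5, the α subunit of the fibronectin receptor, was at 311 and 301 against 83.2 and 148. Lama3, a laminin chain of the epithelial basement membrane, was lower, at 567 and 738 against 1956 and 1338, and so was Dcn, a proteoglycan gene of fibroblasts, at 20.3 and 62.5 against 112 and 131. Of the wound-repair genes, Ereg, an epidermal growth factor receptor ligand, was listed, at 103 and 115 against 30.4 and 32.5. The genotypes did not overlap for any of these 5 genes, and among all genes listed on day 0 both Efhd2f/f Vil1cre/+ libraries were above for 32% and below for 67%.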

How the data were processed

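RNA of IECs was sequenced from 4 groups of 2 libraries. Per the labels and the submitters' processing notes, CASAVA 1.8, fastp, HISAT2 2.0.5, featureCounts 1.5.0-p3 and DESeq2 1.20.0 were used with GRCm38. The authors deposited 1 table per day, normalized separately, whose per-library signal is a normalized count per gene. Its scaling is not given in the sources used here, and no single step per library turned the values into whole reads (8.85% to 47.1% of the values under 60 were within 0.01 of a whole number at the best step). The tables hold the genes the authors kept, with an adjusted p-value under 0.05 and a log2 fold change beyond 1 in either direction. Their columns of fold changes, p-values and adjusted p-values were not used. The column names give genotype and day, and the library numbers in them are found in no label.

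Values under 1e-06 were set to 0 (14 on day 7, 25 on day 0). Log2(normalized count + 1) was compared between group means within a day, with its standard error from the libraries. No test was run, because the genes were selected on the same contrast in the same libraries, and raw counts were not used here. The members and lists were chosen with earlier results of these data known. Named genes are the 5 members, Efhd2, the listed genes of the matrix and wound-repair lists, the 3 genes nearest to each member, and up to 5 listed genes by mean level of the neutrophil, macrophage and fibroblast lists. Positions of the members equal those of GENCODE M21. Alternatives were pseudocounts of 0.1 and 10, equal sums over the listed genes, arithmetic means, a mean of at least 50, no division by length, and each library left out in turn. Python 3.11.15, pandas 2.3.3, numpy 2.4.6 and matplotlib 3.10.9 were used. The log2 difference between groups was tested on simulated counts, and the other steps were not.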

Additional observations from a re-analysis of the deposited data

Results flagged for a closer look

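Spp1 was singled out because its difference between the genotypes had opposite signs on both days, with every library of a genotype on one side on the authors' scale. The log2 difference, Efhd2f/f Vil1cre/+ minus Efhd2f/f, was 2.67 on day 7 after DSS and -2.85 on day 0. This change of sign was not tested, since the tables were normalized separately, and on day 0 the highest of the 4 values was 9.80 normalized counts. The days shared 9 listed genes, and only members were examined for such a change. Of all listed genes, 91.4% had a log2 difference above 1 on day 7 and 65% had one below -1 on day 0.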

How the results depend on the processing

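Scaling the libraries of a day to equal sums over the listed genes changed most results. On day 7 the log2 difference became 0.39 for Mmp8, 0.049 for Mmp9 and 0.28 for Spp1, and turned to -0.72 for Adam8 and -0.037 for Fn1. The number of members with both Efhd2f/f Vil1cre/+ libraries above both Efhd2f/f libraries went from 5 to 0. Over all genes listed on day 7, those with a log2 difference above 1 went from 117 to 31, those without overlap from 116 to 33 above and from 11 to 35 below, and on day 0 the genes with a difference above 1 went from 98 to 37. The sums depend most on abundant genes. Those of day 7 hold genes selected as higher, so this scaling lowers the differences of that day by its construction. Reg3b, which is part of the day 7 sums, had a mean of 222622 normalized counts in Efhd2f/f Vil1cre/+ IECs and 13612 in Efhd2f/f IECs. On day 0, where most listed genes were lower, the median also moved by -0.61. For Spp1 on day 0, pseudocounts of 0.1 and 10 gave -4.81 and -0.88. A mean of at least 50 left 120 of 201 genes with a difference below -1 on day 0 and 128 of 207 below without overlap, since fewer genes were counted. When 1 library at a time was left out, the day 7 differences kept their sign, from 1.79 to 3.84 for Mmp8, 1.66 to 3.28 for Mmp9, 1.22 to 2.20 for Adam8, 1.71 to 3.05 for Fn1 and 1.20 to 4.14 for Spp1, and Spp1 on day 0 from -3.36 to -2.35. Without division by length, 5 of 5 members changed place in the order of levels. No paired analysis was possible because the replicate numbers of the labels do not appear in the columns of the tables. The depth of the libraries is unknown, so the precision of values near 0, such as those of Spp1 on day 0, cannot be given.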

Other observations

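Ratios between normalized counts of a library, chosen after the values were seen and not divided by length, are given as values. Mmp9 was at 0.30 and 0.28 of S100a8 in libraries 65 and 71 and at 0.30 and 0.33 in libraries 67 and 68. Mmp8 was at 0.17 and 0.21 of S100a8 in libraries 65 and 71 and at 0.13 and 0.21 in libraries 67 and 68. The ratio of Mmp9 to its inhibitor Timp1 was 6.93 in library 65 and 57.5 in library 71, and 21.4 and 23.8 in libraries 67 and 68, so the Efhd2f/f Vil1cre/+ libraries lay on either side of the Efhd2f/f libraries. The ratio of Spp1 to Fn1, both ligands of integrins, was 0.64 in library 65 and 0.05 in library 71, and 0.13 and 0.16 in libraries 67 and 68.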
